A study of Mus musculus with 36 samples.

Results

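The 9 genes described here encode enzymes of the methionine cycle and of the one-carbon reactions joined to it: *Mat1a*, *Gnmt*, *Bhmt*, *Bhmt2*, *Ahcy*, *Cbs*, *Cth*, *Shmt1* and *Pemt*. They were found by their symbol in the deposited gene table, where each symbol stands in 1 row, and they make up 9 of 54532 listed genes. All 9 had at least 100 counts over the 36 libraries and were among the 17994 genes tested. Livers came from 18 control and 18 knockout mice, and 3 mice of each genotype were taken every 4 h from ZT2 to ZT22 (zeitgeber time, where ZT0 is lights on). The controls were heterozygous (THRB+/-) and are called THRB WT, and the knockouts were homozygous (THRB-/-) and are called THRB KO. Every mouse of the series thus carried at least 1 altered *Thrb* allele. All were males of 2 to 3 months on a C57Bl/6NCrl background, under 12 h of light and 12 h of dark, with normal chow and water freely available. The allele is present throughout the body, so a difference in liver can come from liver or from other organs.

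In liver, methionine adenosyltransferase turns methionine into S-adenosylmethionine, the methyl donor of most methylation reactions. Methyltransferases such as GNMT and PEMT use it up and leave S-adenosylhomocysteine, which AHCY splits into adenosine and homocysteine. Homocysteine is then either methylated back to methionine, with betaine as the donor for BHMT, or drained through CBS and CTH towards cysteine and glutathione. Serine hydroxymethyltransferase feeds carbon units from serine into the folate pool. Most of these enzymes are abundant in hepatocytes.

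Total counts per library lay between 29063273 and 42530551 over both genotypes, and each member had at least 4464 counts in every library. *Thrb* transcripts were counted at 24.3 to 38.5 CPM (counts scaled to a common library size with edgeR's TMM factors) in THRB WT and at 26.2 to 37.7 CPM in THRB KO livers. Counts per gene do not separate the altered exon, so this level gave no check of the genotype labels. The deiodinase gene *Dio1*, a target of thyroid hormone, was called lower in the knockouts, with a log2 fold change of -0.97 (adjusted p = 4.2e-05, edgeR). It was the only one called of 5 genes listed as thyroid hormone checks. *Thrsp* had a log2 fold change of -0.24 and *Me1*, in the other direction, of 0.34 (adjusted p = 0.714 and 0.215, edgeR). For *Thra* and *Thrb* the values were -0.059 and 0.13 (adjusted p = 0.788 and 0.309, edgeR). The 7 tested hepatocyte markers summed to 68299 to 102136 CPM per library, and no marker of the hepatocyte, macrophage, endothelial, stellate, cholangiocyte, lymphocyte or red cell lists was at 0 in all libraries or passed the genotype test. Of 6 pericentral and 6 periportal hepatocyte markers, 1 passed, *Ctsc*, which was higher in THRB KO livers (log2 fold change 0.64). The pericentral markers summed to 5352 CPM at their lowest and 9946 CPM at their highest sampling time in THRB WT livers, and the periportal ones to 2916 and 5839 CPM, both highest at ZT10. Single genes led these sums at ZT10, where *Cyp2e1* made up 7565 CPM of the pericentral and *Pck1* 3427 CPM of the periportal one. Of the other periportal markers, *Sds* and *Gls2* were highest at ZT10, *Cyp2f2* and *Ctsc* at ZT6 and *Hal* at ZT2 in THRB WT livers. The sums are therefore no measure of zonation, and the part of zonation in the time courses below was not tested. In whole liver, fewer cells of a type and less RNA per cell cannot be told apart.

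RefSeq promoter windows on GRCm38.p6 were at hand for 7 members: *Gnmt*, *Bhmt*, *Bhmt2*, *Ahcy*, *Cbs*, *Shmt1* and *Pemt*, the last with a pair of windows, and *Mat1a* and *Cth* had none. The 250 bases before each start were searched on both strands for the E-box CACGTG that clock proteins bind, the D-boxes TTATGTAA and TTACGTAA, the nuclear receptor core AGGTCA and its direct repeat with 4 bases between the cores, known from thyroid hormone receptors, every match of which also holds AGGTCA. The *Cbs* window, chr17:31637206-31637455 on the minus strand, is shown whole because *Cbs* had the clearest rhythm of the members and the only E-box. For the others, 30 bases around each AGGTCA match are shown. The RefSeq start lies inside the gene model that was counted for *Gnmt*, *Bhmt*, *Shmt1* and *Pemt*. The matches 72 and 47 bases before the start of *Bhmt* therefore fall within the model of *Bhmt*, while the match of *Gnmt* lies outside that of *Gnmt*. Capitals mark the match, written TGACCT where it lies on the strand opposite to the gene, and all sequences run 5′ to 3′ on the strand of the gene.
Cbs: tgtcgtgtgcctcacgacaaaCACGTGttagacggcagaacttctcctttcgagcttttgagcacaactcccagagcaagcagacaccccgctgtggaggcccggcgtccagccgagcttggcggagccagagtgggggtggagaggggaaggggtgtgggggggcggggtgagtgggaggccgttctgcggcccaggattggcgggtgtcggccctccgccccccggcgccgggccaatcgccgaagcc
Bhmt, 234 bases before the start, chr13:93637975-93638004: tgtgccagatgtAGGTCAtgcagtttacac
Bhmt, 72 bases before the start, chr13:93637813-93637842: gaccccagatcaAGGTCAgaggcctgctat
Bhmt, 47 bases before the start, chr13:93637788-93637817: gctattggacaaAGGTCAgtgtgcagacga
Ahcy, 205 bases before the start, chr2:155074685-155074714: tctgccttgtttTGACCTctgattcactgg
Gnmt, 181 bases before the start, chr17:46729329-46729358: gcgagtcctatcTGACCTgtcttactaagc

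The E-box stood in 1 of the 8 member windows and in 6.02% of all 32851 RefSeq windows. AGGTCA stood in 3 of the 8, those of *Bhmt*, *Ahcy* and *Gnmt*, and in 14% of all. The D-boxes and the direct repeat stood in none of the 8, and in 0.819%, 0.113% and 0.0152% of all windows. Each match is a run of letters and was not tested as a binding site.

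Levels of different genes were compared as RPKM (CPM per kilobase of the gene model), the only scale used here between genes. *Gnmt* was the most abundant member, with 1509 ± 197 RPKM (SD, n = 36), and held rank 41 of all tested genes. *Mat1a* followed with 733 ± 150.3 RPKM, *Ahcy* with 567 ± 101 RPKM and *Bhmt* with 314 ± 172 RPKM. *Pemt* had 173 ± 14.7, *Cbs* 164 ± 42.1 and *Cth* 136 ± 32.5 RPKM, and *Bhmt2* with 90.5 ± 13.8 and *Shmt1* with 51.1 ± 7.44 RPKM closed the order. *Gnmt* was above *Mat1a* in all 36 livers, *Cth* above *Bhmt2* in 36 and *Bhmt2* above *Shmt1* in 36. *Mat1a* was above *Ahcy* in 35 of 36 livers, *Ahcy* above *Bhmt* in 31, *Bhmt* above *Pemt* in 28 and *Cbs* above *Cth* in 28. *Pemt* and *Cbs* did not separate, with *Pemt* the higher in 19 of 36. This order depends on the lengths of the gene models, from 1206 bases for *Gnmt* to 5758 bases for *Bhmt*. It leaves out counts held by the near-identical copies of *Ahcy* and *Bhmt* described below. Together the 9 genes took 0.949% of all counts.

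**Figure D1:**
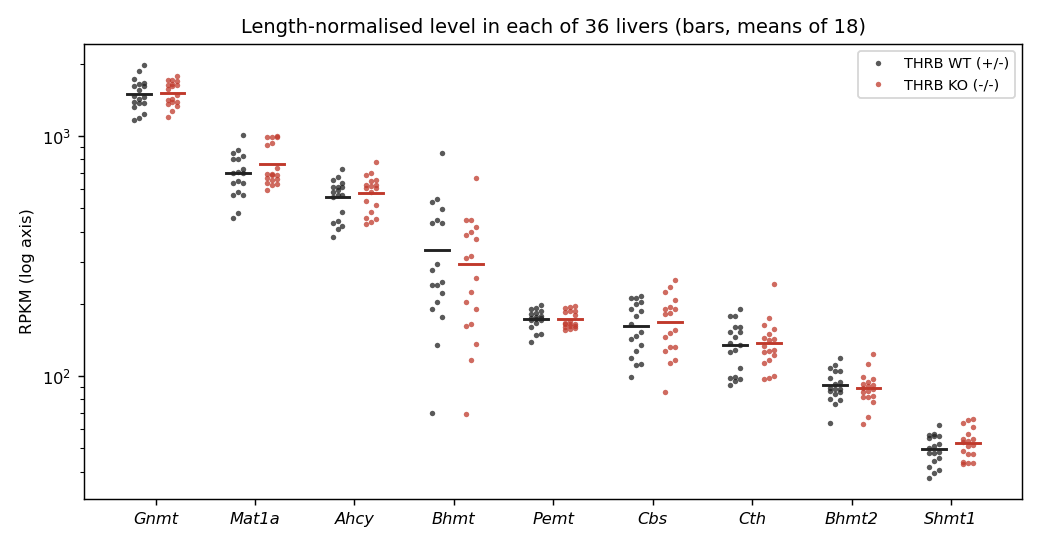
Length-normalised level (RPKM, log axis) of each member in each of 36 livers, with THRB WT in black and THRB KO in red; points are mice and bars are means of 18. *Gnmt* lies highest and *Shmt1* lowest in both genotypes, and *Bhmt* spreads most, from 69.5 to 850.4 RPKM.

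The first question was whether liver levels of these genes differ between THRB WT and THRB KO mice when the sampling time is taken into account. None of the 9 passed the test adjusted for sampling time (edgeR's quasi-likelihood test, Benjamini-Hochberg adjusted p under 0.05), against 0.950% of all tested genes. At an unadjusted p under 0.05, none of the 9 passed either, against 12.1% of all genes, and DESeq2 called none of the 9 and 1.70% of all genes. With the sampling times pooled, edgeR and DESeq2 again called none, against 0.361% of all genes by edgeR and 0.540% by DESeq2, and none had an unadjusted p under 0.05 by edgeR, against 7.00%. The log2 fold changes ran from -0.15 for *Bhmt* to 0.14 for *Mat1a*, with a median of 0.018 over the members and -0.0011 over all genes, and 6 of the 9 were positive, as were 49.5% of all genes. The 95% intervals bounded the difference in level to between 0.984 and 1.23 times for *Mat1a*, and to between 0.923 and 1.10 times for *Gnmt*. They ran from 0.9900 to 1.11 times for *Ahcy*, from 0.995 to 1.14 times for *Shmt1* and from 0.939 to 1.06 times for *Pemt*. The interval was widest for *Bhmt*, from 0.7096 to 1.15 times.

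**Figure D2:**
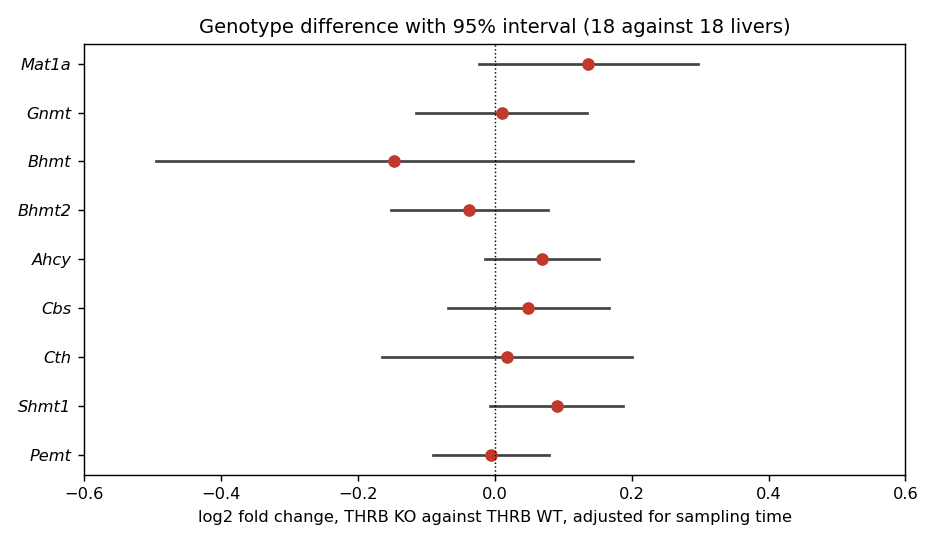
Log2 fold change of each member in THRB KO against THRB WT livers, adjusted for sampling time (horizontal axis), with its 95% interval; dots are estimates from 18 against 18 livers. All 9 intervals include 0, and that of *Bhmt*, from -0.49 to 0.20, is the widest.

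The second question was how the members vary over the day. A 24-h rhythm (sine and cosine terms in edgeR, adjusted p under 0.05) was called for 6 of the 9 in THRB WT livers, against 33.0% of all genes, and for 4 of the 9 in THRB KO livers, against 28.9% of all genes. At an unadjusted p under 0.05, edgeR gave 6 for THRB WT and 7 for THRB KO mice, against 42.7% and 39.6% of all genes. DESeq2 called 6 for THRB WT and 5 for THRB KO mice, against 36.3% and 32.6% of all genes. *Bhmt*, *Ahcy*, *Cbs* and *Shmt1* were called by edgeR in both genotypes, a state found for 21.5% of all genes. Peak time and amplitude below come from a cosine fitted to variance-stabilised values, and the amplitude, in log2 units, is the distance from the mean of the curve to its peak. Values are given as the 3 mice of a group in ascending order, in CPM.

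**Figure D3:**
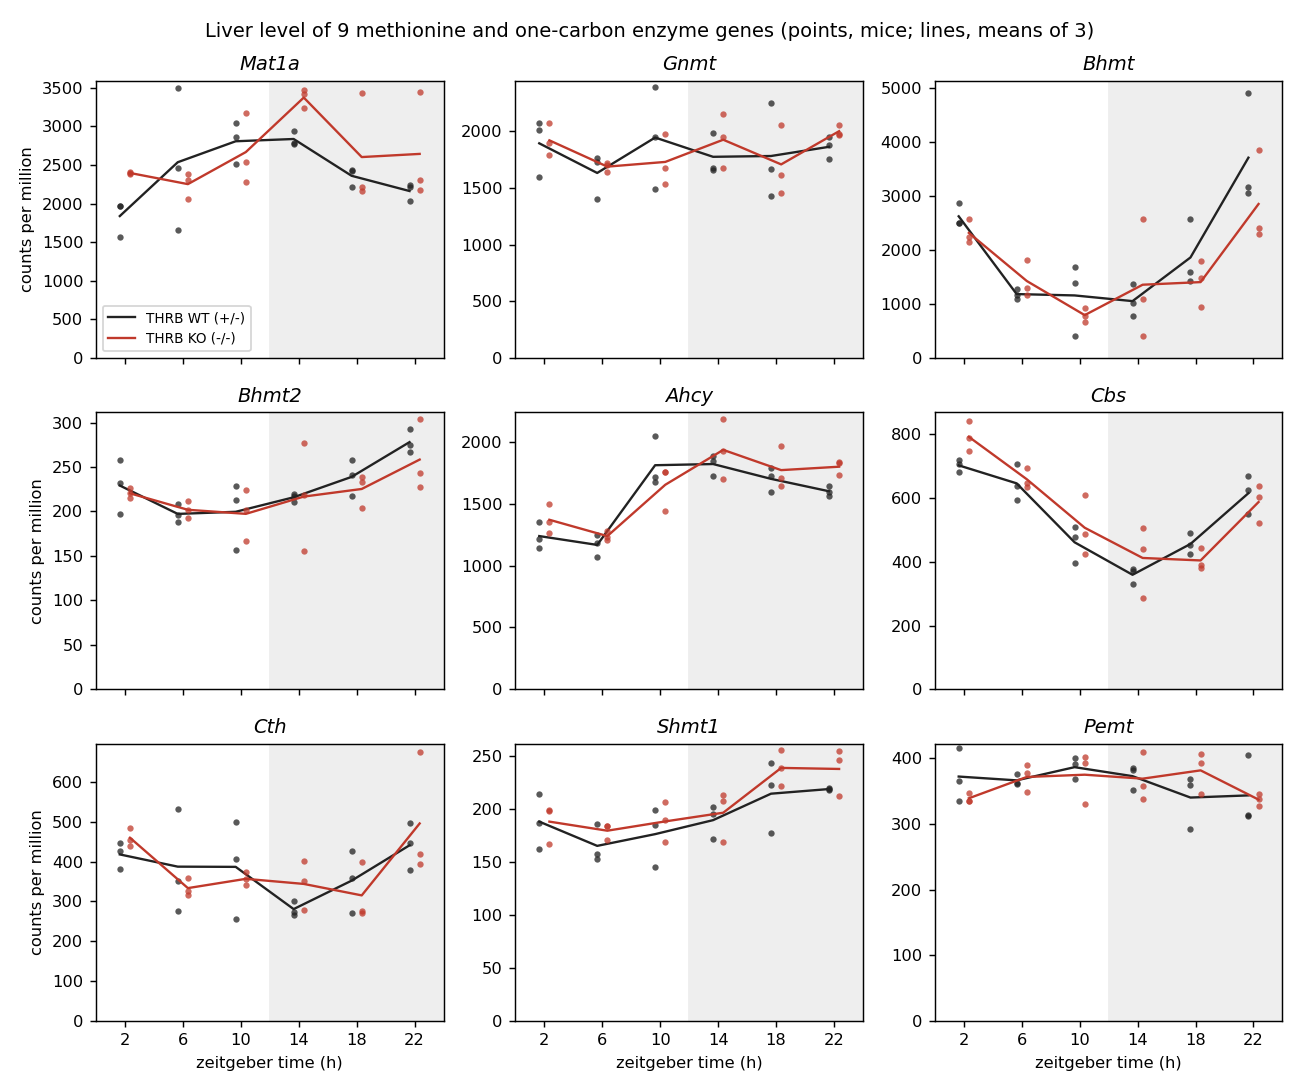
CPM of each member (vertical axis, from 0) at 6 zeitgeber times (horizontal axis, h; dark phase shaded), with THRB WT in black and THRB KO in red; points are mice and lines join means of 3. *Bhmt* and *Cbs* trace the deepest troughs, at ZT10 to ZT18, while *Ahcy* rises between ZT6 and ZT14 and *Gnmt* and *Pemt* stay nearly level.

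*Mat1a*, which encodes the methionine adenosyltransferase of adult liver, lies on chromosome 14 of GRCm38 from 41105035 to 41124412, 23.1 Mb from *Thrb*. In THRB WT livers it was lowest at ZT2, with 1574, 1971 and 1973 CPM, and highest at ZT14, with 2779, 2788 and 2947 CPM. THRB KO mice had 2385, 2398 and 2411 CPM at ZT2 and 3234, 3419 and 3471 CPM at ZT14. The THRB KO mice were thus above the THRB WT mice without overlap at both of these times. Single mice stood apart elsewhere, with 3493 CPM against 1653 and 2465 CPM at ZT6 in THRB WT, and with 3428 CPM at ZT18 and 3449 CPM at ZT22 in THRB KO livers, where the other mice had 2302 CPM or less. Over the day THRB WT livers ranged from 1574 to 3493 CPM (median 2433, n = 18) and THRB KO livers from 2062 to 3471 CPM (median 2392, n = 18). The log2 fold change adjusted for sampling time was 0.14 (SE 0.079, adjusted p = 0.506, edgeR), and the THRB KO mean was higher at 4 of 6 times. At ZT2 alone it was 0.38 (SE 0.19, unadjusted p = 0.0517, adjusted p = 0.864, edgeR), and DESeq2 gave an unadjusted p of 0.0428 and an adjusted p of 0.905, the only one of 54 member tests at single times under 0.05 by either tool. The rhythm in THRB WT livers had an amplitude of 0.29 and a peak at ZT12.4 ± 1.05 h (SE, adjusted p = 0.0159, edgeR). The labels letter the mice of a group a, b and c, and the rhythm was not called without the mice of letter a (adjusted p = 0.0624, edgeR) or c (0.0865) or with sampling time as a factor of 6 levels (0.0974). In THRB KO livers the rhythm was not called (amplitude 0.2045, adjusted p = 0.103, edgeR). The amplitudes differed by -0.086 (95% interval -0.32 to 0.14), so a difference in rhythm was not shown.

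*Gnmt*, for glycine N-methyltransferase, lies on chromosome 17 from 46725664 to 46729168 on the minus strand. Its THRB WT levels ran from 1403 to 2392 CPM (median 1762, n = 18) and its THRB KO levels from 1454 to 2148 CPM (median 1843, n = 18). The largest spread within a group was at ZT10 in THRB WT livers, with 1490.2, 1947 and 2392 CPM. At ZT22 the THRB KO mice, with 1965, 1975 and 2057 CPM, lay just above the THRB WT mice, with 1757, 1878 and 1949 CPM. No rhythm was called in THRB WT (adjusted p = 0.977, edgeR) or THRB KO livers (adjusted p = 0.529), and the fitted amplitudes were 0.022 and 0.073. The log2 fold change was 0.0098 (SE 0.061, adjusted p = 0.972, edgeR).

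*Pemt*, for the methyltransferase that makes phosphatidylcholine from phosphatidylethanolamine, lies on chromosome 11 from 59970614 to 60046489 on the minus strand. It ranged from 292 to 416 CPM in THRB WT (median 367, n = 18) and from 327 to 410.3 CPM in THRB KO livers (median 348, n = 18). The highest time mean was 1.14 times the lowest for THRB WT and 1.13 times for THRB KO mice, the smallest such ratios of the members. Its fitted amplitudes of 0.085 and 0.078 were above those of *Gnmt*. Neither rhythm was called (adjusted p = 0.371 and 0.316, edgeR). The log2 fold change was -0.0057 (SE 0.042, adjusted p = 0.975, edgeR).

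*Ahcy*, for S-adenosylhomocysteine hydrolase, lies on chromosome 2 from 155059310 to 155074497 on the minus strand. THRB WT mice had 1067, 1186 and 1247 CPM at ZT6 and 1723, 1847 and 1888 CPM at ZT14. THRB KO mice had 1206, 1231 and 1277 CPM at ZT6 and 1700.2, 1921 and 2181 CPM at ZT14. Every mouse at ZT10, ZT14, ZT18 and ZT22 was above every mouse of its genotype at ZT6. The peak fell at ZT15.3 ± 0.613 h (SE) with an amplitude of 0.32 in THRB WT (adjusted p = 0.000524, edgeR) and at ZT16.6 ± 0.671 h with an amplitude of 0.2952 in THRB KO livers (adjusted p = 0.000919). The peak was 1.29 h later in THRB KO livers, with a 95% interval from -0.57 to 3.15 h (adjusted p = 0.984). At ZT22 the THRB KO mice, with 1735, 1825 and 1835 CPM, did not overlap the THRB WT mice, with 1562, 1595 and 1644 CPM (log2 fold change 0.17, adjusted p = 0.988, edgeR). Over all times the log2 fold change was 0.069 (SE 0.041, adjusted p = 0.524, edgeR).

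*Ahcy* has near-identical copies in the mouse genome, so its counts are uncertain. The transcript of *Gm4737* matched that of *Ahcy* at 99.7% of aligned bases and held 19.1% as many counts, and that of *Gm9826* matched at 99.2% and held 2.41% as many. Both followed the time course of *Ahcy*, with THRB WT peaks at ZT15.4 for *Gm4737* and at ZT15.4 for *Gm9826*, and neither passed the genotype test (log2 fold change 0.12 and 0.13, adjusted p = 0.263 and 0.339, edgeR).

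*Bhmt*, for betaine-homocysteine methyltransferase, lies on chromosome 13 from 93616675 to 93637961 on the minus strand and had the largest daily range of the members. At ZT22 the THRB WT mice had 3058, 3158 and 4897 CPM, and at ZT14 they had 773, 1012 and 1373 CPM. THRB KO mice had 2301, 2402 and 3841 CPM at ZT22 and 669.7, 782 and 927 CPM at ZT10. The highest time mean was 3.52 times the lowest for THRB WT and 3.59 times for THRB KO mice, and the mice of these times did not overlap. Its peak fell at ZT22.8 ± 0.719 h (SE) with an amplitude of 0.98 in THRB WT (adjusted p = 0.000337, edgeR) and at ZT23.6 ± 0.819 h with an amplitude of 0.86 in THRB KO livers (adjusted p = 0.00876). The THRB KO rhythm was not called without the mice of letter b (adjusted p = 0.112, edgeR) or c (0.146). Mice of 1 group also differed most for *Bhmt*, with an SD within groups of 0.59 in log2 CPM, against 0.12 to 0.29 for the other members. The extremes were 400.2, 1098 and 2569 CPM at ZT14 in THRB KO and 402, 1380.0 and 1690.2 CPM at ZT10 in THRB WT livers. At single times the log2 fold change ran from -0.55 at ZT10 to 0.36 at ZT14, and over all times it was -0.15 (SE 0.171, adjusted p = 0.801, edgeR). These values depended on single mice. The difference at ZT10 was -0.29 without the mice of letter a, -0.84 without those of letter c and -0.33 with a replicate block, and the difference over all times was -0.28 without the THRB KO mouse a at ZT14 and -0.081 without the THRB WT mouse a at ZT10.

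*Bhmt2*, a neighbour of *Bhmt* from 93655720 to 93674302 on the same strand, encodes an enzyme that methylates homocysteine from S-methylmethionine. Its transcript shared 73.5% of 1116 aligned bases with that of *Bhmt*. THRB WT mice had 188, 196 and 208 CPM at ZT6 and 267, 275 and 292 CPM at ZT22, and THRB KO mice had 193, 201 and 212 CPM at ZT6 and 228, 243 and 304 CPM at ZT22. The daily range was thus smaller than that of *Bhmt*, with its highest mean at ZT22 in both genotypes. The mouse with 157 CPM at ZT10 in THRB WT and the mouse with 155 CPM at ZT14 in THRB KO livers were the same mice that held the lowest *Bhmt* levels. The rhythm was called in THRB WT livers, with a peak at ZT21.1 ± 0.998 h (SE) and an amplitude of 0.23 (adjusted p = 0.00407, edgeR), but not without the mice of letter c (adjusted p = 0.16, edgeR). In THRB KO livers it was not called (amplitude 0.17, adjusted p = 0.125, edgeR), although it was without the mice of letter a (adjusted p = 0.038, edgeR). The amplitudes differed by -0.063 (95% interval -0.24 to 0.11). The log2 fold change between genotypes was -0.037 (SE 0.057, adjusted p = 0.855, edgeR).

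*Bhmt* too has near-identical copies. The transcript of *Gm5096* matched it at 99.4% of aligned bases, held 10.1% as many counts and peaked at ZT22.8 in THRB WT livers, and the pseudogene *Bhmt-ps1* matched at 98.9% and held 0.134% as many. Neither passed the genotype test (log2 fold change -0.12 for *Gm5096* and -0.17 for *Bhmt-ps1*, adjusted p = 0.849 and 0.805, edgeR). With the counts of the copies added to *Ahcy* and *Bhmt*, the calls for genotype and rhythm stayed as they were for both genes. The other 7 members had no such copy.

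*Cbs*, for cystathionine beta-synthase, lies on chromosome 17 from 31612623 to 31637199 on the minus strand and is the gene whose E-box is shown above. At ZT2 the THRB WT mice had 683, 705 and 719 CPM, and at ZT14 they had 331, 370.2 and 377 CPM. The THRB KO mice had 746, 788 and 840.4 CPM at ZT2 and 379.8, 391 and 442 CPM at ZT18. Levels thus fell from early light to the dark phase, 1.95 times for THRB WT and 1.96 times for THRB KO mice, and at ZT2 the THRB KO mice were above the THRB WT mice without overlap. The rhythm test gave the smallest p of the members in both genotypes (adjusted p = 8.9e-07 in THRB WT and 6.4e-05 in THRB KO, edgeR). The peak fell at ZT2.18 ± 0.458 h (SE) with an amplitude of 0.48 in THRB WT and at ZT3.07 ± 0.437 h with an amplitude of 0.4989 in THRB KO livers. It was 0.888 h later in THRB KO livers, with a 95% interval from -0.40 to 2.18 h (adjusted p = 0.984). Between genotypes the log2 fold change was 0.049 (SE 0.058, adjusted p = 0.804, edgeR), and at ZT2 it was 0.17 (adjusted p = 0.8899, edgeR).

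*Cth*, for cystathionine gamma-lyase, the next enzyme of the path, lies on chromosome 3 from 157894248 to 157925077 on the minus strand. At ZT14 the THRB WT mice had 267, 273 and 301 CPM, and at ZT22 they had 377, 448 and 497 CPM. The THRB KO mice had 270.0, 275 and 399.9 CPM at ZT18 and 393, 419 and 675 CPM at ZT22, so these groups overlapped. The mouse at 675 CPM was also the one with 3449 CPM of *Mat1a*, and the THRB WT mouse at ZT6 with 533 CPM, against 277 and 352 CPM in the other two, was the one with 3493 CPM of *Mat1a*. The rhythm was not called in THRB WT (amplitude 0.25, adjusted p = 0.139, edgeR) or THRB KO livers (amplitude 0.25, adjusted p = 0.0605, edgeR). For THRB KO mice DESeq2 called it (adjusted p = 0.0393), as did edgeR with sampling time as a factor (0.0488), and the adjusted p rose to 0.427 without the mice of letter b (edgeR). Its genotype difference was 0.018 on the log2 scale (SE 0.09, adjusted p = 0.963, edgeR). Reads that fall where *Cth* overlaps *Gm43314* on the same strand, which held a mean of 324 counts per library against 13030.4 for *Cth*, cannot be given to either with certainty.

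*Shmt1*, for cytosolic serine hydroxymethyltransferase, lies on chromosome 11 from 60788104 to 60811718 on the minus strand. At ZT6 the THRB WT mice had 153, 157 and 185 CPM, and at ZT22 they had 218, 219 and 219.9 CPM. The THRB KO mice had 171, 184 and 184 CPM at ZT6 and 222, 239 and 256 CPM at ZT18. The mean was thus lowest at ZT6 in both genotypes and highest at ZT22 in THRB WT and at ZT18 in THRB KO livers. Its peak fell at ZT19.8 ± 0.959 h (SE) with an amplitude of 0.2001 in THRB WT (adjusted p = 0.0157, edgeR) and at ZT19.4 ± 0.881 h with an amplitude of 0.22 in THRB KO livers (adjusted p = 0.003998). In THRB WT livers it was not called without the mice of letter a (adjusted p = 0.113, edgeR) or c (0.234) or with sampling time as a factor (0.151). *Shmt1* had the smallest unadjusted p of the members for genotype (0.0677), with a log2 fold change of 0.0904 (SE 0.048, adjusted p = 0.46, edgeR), so a difference was not shown. Its end overlaps *Smcr8* on the other strand, which held a mean of 697 counts against 6768 for *Shmt1*, and the libraries did not keep strand.

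**Figure D4:**
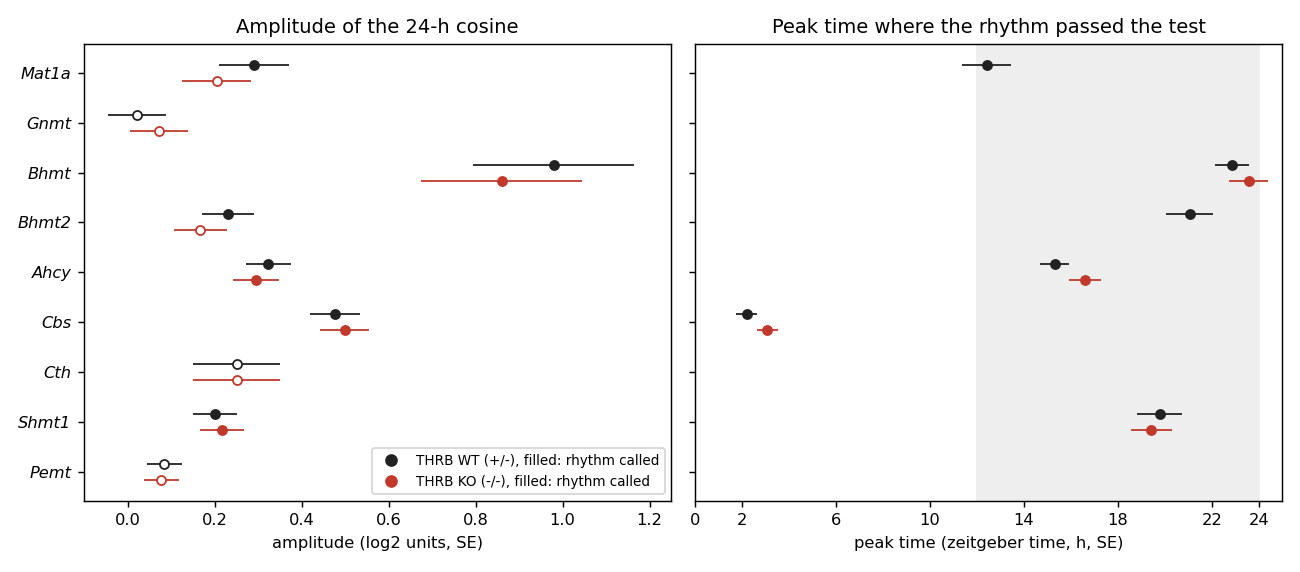
Left, amplitude of the 24-h cosine (log2 units, ± SE) of each member in THRB WT (black) and THRB KO (red) livers, filled where the rhythm was called; right, peak time (zeitgeber time in h, ± SE) of the called rhythms, with the dark phase shaded. *Bhmt* has the largest amplitude, 0.98 and 0.86, and *Cbs* peaks early in the light phase, at ZT2.18 and ZT3.07.

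The called peaks in THRB WT livers thus ran from *Cbs* at ZT2.18 through *Mat1a* at ZT12.4, *Ahcy* at ZT15.3, *Shmt1* at ZT19.8 and *Bhmt2* at ZT21.1 to *Bhmt* at ZT22.8. Neighbours in this order overlapped within ± 2 SE, except *Cbs* with *Mat1a*, *Ahcy* with *Shmt1* and, across lights on, *Bhmt* with *Cbs*. The peak of *Cbs* came 3.34 h after that of *Bhmt* in THRB WT and 3.51 h after it in THRB KO livers. The mesor (the mean level of the fitted curve), the amplitude and the peak time were then compared between genotypes. No mesor or amplitude difference was called among the 9, against 0.645% and 0% of all genes, nor at an unadjusted p under 0.05, against 11.2% and 1.79%. The peak time was compared for *Bhmt*, *Ahcy*, *Cbs* and *Shmt1*, the members rhythmic in both genotypes at an unadjusted p under 0.01. None of the 4 passed the test, against 0% of 3418 genes after adjustment and 4.42% at an unadjusted p under 0.05. The peak of *Bhmt* was 0.714 h later (95% interval -1.51 to 2.94 h) and that of *Shmt1* differed by -0.353 h (95% interval -3.01 to 2.31 h). The median difference over the 4 was 0.801 h, and 0.387 h over the 3418 genes.

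Whether the genotype difference itself varies with the time of day was tested by 5 interaction terms. None of the 9 was called by edgeR or DESeq2, against 0% of all genes by both, and none had an unadjusted p under 0.05, against 2.69% of all genes by edgeR. At single sampling times, with 3 mice against 3 and the spread pooled over all 12 groups, none of 54 member tests was called, against 0.0195% of all gene by time tests by edgeR and 0.0482% by DESeq2. None had an unadjusted p under 0.05 by edgeR, against 4.89% of all such tests. The log2 fold changes lay between -0.55 and 0.38, and 31 of 54 were positive. The groups did not overlap in 5 of 54 tests (9.26%): *Mat1a* and *Cbs* at ZT2, *Mat1a* at ZT14 and *Gnmt* and *Ahcy* at ZT22. Over all gene by time comparisons the share was 9.96%, with either genotype above. In these 5 the THRB KO mice were above. The shares over all genes with THRB KO above, or with a positive log2 fold change at single times, were not taken, so neither direction is read as a trend.

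**Figure D5:**
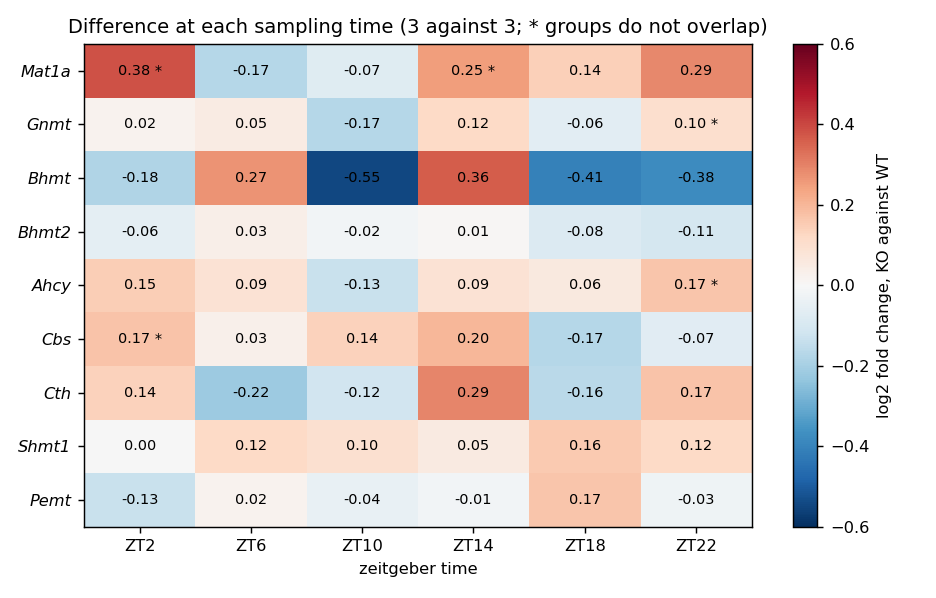
Log2 fold change in THRB KO against THRB WT livers for each member (rows) at each sampling time (columns), in colour and digits; a star marks groups of 3 against 3 that do not overlap. *Bhmt* spans the widest range, from -0.55 at ZT10 to 0.36 at ZT14, and the 5 starred cells are all positive.

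Other genes of the same pathways were read from 5 lists. None of their 60 genes passed the genotype test by edgeR, against 0.950% of all tested genes, and 9 had an unadjusted p under 0.05, against 12.1%. Rhythms were called for 31 in THRB WT, 33 in THRB KO and 28 in both genotypes, against 33.0%, 28.9% and 21.5% of all genes, and the counts of each list below stand against these same shares. Of 14 other genes of the methionine cycle and methyl transfer, 7 were rhythmic in THRB WT, 8 in THRB KO and 6 in both. *Amd1*, which draws S-adenosylmethionine into polyamines, peaked at ZT12.2 and ZT11.7 with amplitudes of 0.53 and 0.41. *Ahcyl2*, a relative of *Ahcy*, peaked at ZT18.1 and ZT20.5 with amplitudes of 0.41 and 0.48. The smallest p-values for genotype in this list were those of *Mat2b*, *Mtrr* and *Mtap*, with log2 fold changes of 0.069, 0.12 and 0.066 (adjusted p = 0.464, 0.482 and 0.555, edgeR).

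Of 19 folate genes, 10 were rhythmic in THRB WT, 9 in THRB KO and 8 in both, where 33.0%, 28.9% and 21.5% of all genes were. *Mthfd1l*, *Fpgs* and *Amt* had the largest amplitudes, of 0.80, 0.65 and 0.59 in THRB WT livers, and peaked there at ZT13.6, ZT22.0 and ZT0.788. *Slc25a32*, the folate carrier of mitochondria, had a log2 fold change of 0.19, *Mthfd1* of 0.086 and *Gldc* of 0.12 (adjusted p = 0.223, 0.388 and 0.442, edgeR). Of 10 cysteine, taurine and glutathione genes, which lie downstream of *Cbs* and *Cth*, 8 were rhythmic in THRB WT, 9 in THRB KO and 8 in both. *Ethe1* and *Gclc*, the latter the catalytic subunit of the enzyme that starts glutathione synthesis, peaked at ZT1.11 and ZT2.45 in THRB WT livers, and *Cdo1*, which oxidises cysteine, at ZT5.02. *Tst*, for thiosulfate sulfurtransferase, came closest to a call for genotype of all 60 genes, with 258 ± 25.8 CPM for THRB WT and 231 ± 27.1 CPM for THRB KO mice (SD, n = 18 each, log2 fold change -0.16, adjusted p = 0.0554, edgeR). *Mpst*, its relative, had a log2 fold change of -0.11 and *Cdo1* one of 0.072 (adjusted p = 0.311 and 0.727, edgeR).

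Of 11 choline and phospholipid genes, 3 were rhythmic in both genotypes. *Chka*, for choline kinase, which starts the route to phosphatidylcholine that runs beside *Pemt*, had amplitudes of 1.57 and 1.47 and peaks at ZT21.8 and ZT22.2, while *Slc44a1* peaked at ZT23.3 and ZT22.9 and *Etnk2* at ZT11.5 and ZT11.8. *Cept1*, *Etnk2* and *Chpt1* had log2 fold changes of 0.12, -0.11 and 0.12 (adjusted p = 0.131, 0.348 and 0.3696, edgeR). Of 6 serine and glycine genes, 3 were rhythmic in THRB WT, 4 in THRB KO and 3 in both: *Sds*, *Agxt* and *Psph*, with THRB WT peaks at ZT10.2, ZT4.88 and ZT22.7. *Psat1*, at 2.14 ± 2.70 CPM in THRB WT and 1.20 ± 1.78 CPM in THRB KO livers (SD, n = 18 each), differed by -0.89 on the log2 scale (adjusted p = 0.283, edgeR), and *Phgdh* and *Glyat* had 0.47 and -0.037 (adjusted p = 0.759 and 0.814). All 14 tested clock genes were rhythmic in both genotypes, and none of them passed the genotype test.

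The gene whose 12 group means of log2 CPM ran most like those of each member was taken from 11909 genes with a mean of at least 50 counts. For *Bhmt* and *Ahcy* it was a near-identical copy, *Gm5096* (Pearson r = 0.997) and *Gm4737* (r = 0.985). It was *Lgals9* for *Cbs* (r = 0.976), *Tmx2* for *Bhmt2* (r = 0.975), *Ago2* for *Mat1a* (r = 0.957) and *Acly* for *Shmt1* (r = 0.952). For the members whose rhythm edgeR called in neither genotype the values were lower, with *Ogfod3* for *Pemt* (r = 0.913), *Csnk1a1* for *Cth* (r = 0.911) and *Prkag2* for *Gnmt* (r = 0.8801). These r are descriptions over 12 groups that share libraries and sampling times, chosen as the highest of many.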

How the data were processed

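Poly-A selected, non-directional libraries of 36 mouse livers were sequenced as read pairs. The authors mapped them to GRCm38 with HISAT2, counted reads per gene with FeatureCounts and deposited whole-number counts without normalization. Versions, annotation release, strand setting and the treatment of reads with several matches are not given in the sources used here. Groups came from the sample titles. The 9 members and all gene lists were chosen with earlier results of these data known, and the lists were written from general knowledge.

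Counts of the 17994 genes with a sum of at least 100 were TMM-scaled and tested with edgeR 4.0.16 (limma 3.58.1, R 4.3.3), with Benjamini-Hochberg adjustment over all tested genes and a threshold of 0.05. Genotype was fitted with sampling time as a factor, alone, with interaction terms, or within 12 groups, and 24-h sine and cosine terms were fitted per genotype. CPM used TMM library sizes, and log2 CPM a prior count of 2. CircaCompare's model was fitted by least squares and the delta method to DESeq2 1.42.0 variance-stabilised values. The tests were checked on simulated data. DESeq2, its size factors, other count filters, a replicate block, leaving out mice, a factor for time and log2 CPM values were alternatives, and a joint rhythm fit and added copies were chosen after seeing the data. Near-identical copies were found with BLAST in GENCODE M21 transcripts.

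Of each pathway list the text names the 3 genes with the smallest genotype p and the 3 with the largest amplitude among those rhythmic in both genotypes, and of each member the gene with the most similar group means. 1 gene that this rule names is not reported here. Promoters are from RefSeq (GRCm38.p6). Depth limits these members little, since each had at least 4464 counts in every library, and counts cover counting error only. Columns of gene length and annotation were used as deposited.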

Additional observations from a re-analysis of the deposited data

How the results depend on the processing

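No member was called for genotype, for the interaction, at a single sampling time or for mesor, amplitude or peak time under any alternative run for that comparison. For genotype these were DESeq2, its size factors, no filter on low counts, filterByExpr, the added copies, the mice of 1 letter left out, a replicate block and, adjusted for sampling time, 36 fits that each left out 1 library. The number of members with a called rhythm ranged from 3 to 6 in THRB WT livers when the mice of 1 letter were left out (3 without letter c, 4 without letter a), and from 3 to 5 in THRB KO livers. With both genotypes in 1 fit, a choice made after seeing the data, 7 of 9 members were rhythmic, against 50.5% of all genes. With sampling time as a factor of 6 levels, 4 were called for THRB WT and 5 for THRB KO mice. Over all rhythm alternatives, the fewest genes called were 3109 for THRB WT and 2343 for THRB KO mice. DESeq2 called 6529 genes for THRB WT and 5854 for THRB KO mice. The joint fit called 9091, but it tests both genotypes at once and gives no count for either alone. The counts of members are therefore not read as a result about these genes. Near 0, the sign of some differences changed with the mice left out. The log2 fold change adjusted for sampling time then ranged from -0.030 to 0.040 for *Gnmt*, from -0.027 to 0.067 for *Cth* and from -0.025 to 0.013 for *Pemt*, and with times pooled from -0.028 to 0.036 for *Gnmt* and from -0.014 to 0.011 for *Pemt*. The amplitude difference ranged from -0.086 to 0.042 for *Ahcy*, from -0.034 to 0.080 for *Cbs* and from -0.025 to 0.065 for *Shmt1*. None of these had an adjusted p under 0.05, and the cause was not tested.

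The letters a, b and c were not taken as pairs in the main tests, and whether they pair the mice was not settled. Deviations from the group means correlated above 0.1 in 9 of 18 same-letter pairs (range -0.038 to 0.22) and below 0 in 1. Yet 31 of 36 libraries correlated best with their own letter. The deposited column names also carry numbers, which lie close together for most same-letter pairs. What these numbers stand for is not stated. With a replicate block of mice that share sampling time and letter, 0 members were called for genotype, with or without sampling time, for the interaction, at single times and for the mesor. The block holds the sampling time, so the fits with and without time become 1 fit, which called 387 genes, against 171 adjusted for time and 65 with times pooled. The block raised the calls for the mesor from 116 to 374 and those at single times from 21 to 36, while DESeq2 called 306 genes adjusted for time and 52 at single times, and 43 were called at single times with no filter. Without the mice of 1 letter, the calls over all genes ranged from 40 to 81 adjusted for time, from 16 to 24 with times pooled, from 31 to 46 for the mesor and from 7 to 18 at single times. Rhythmic genes then ranged from 3109 to 4005 in THRB WT (5936 with all mice) and from 2343 to 3192 in THRB KO livers (5201 with all mice), and the joint fit called 9091.

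With 3 mice a group, intervals at single times were wide. Over all times, the 95% interval of the fold of *Bhmt* adjusted for sampling time ran from 0.71 to 1.15. Reads shared between *Ahcy* or *Bhmt* and their near-identical copies could not be told apart in counts per gene.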

Other observations

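Some single mice were the lowest or the highest of their group of 3 for more than 1 member at once. The THRB WT mouse c at ZT10 had 402 CPM of *Bhmt*, 157 CPM of *Bhmt2*, 256 CPM of *Cth* and 146 CPM of *Shmt1*, each the lowest of its group of 3. The THRB KO mouse c at ZT14 had 400.2 CPM of *Bhmt*, 155 CPM of *Bhmt2* and 169 CPM of *Shmt1*, again each the lowest of its group. The THRB WT mouse b at ZT6 had the highest *Mat1a* (3493 CPM) and *Cth* (533 CPM) of its group, and the THRB KO mouse b at ZT22 the highest *Mat1a* (3449 CPM) and *Cth* (675 CPM) of its group. Other members of these mice went either way or lay in between. The THRB WT mouse c at ZT10 was also the lowest for *Mat1a* (2517 CPM), *Gnmt* (1490 CPM) and *Cbs* (396 CPM). The THRB KO mouse c at ZT14 was also the lowest for *Ahcy* (1700.2 CPM) and *Pemt* (339 CPM). Of the mice of letter b, that at ZT6 was also the highest for *Pemt* (375 CPM) and that at ZT22 for *Gnmt* (2057 CPM) and *Cbs* (636 CPM). In the other direction, *Pemt* was the highest of its group in the THRB WT mouse c at ZT10 (399.9 CPM). So was *Cbs* in the THRB KO mouse c at ZT14 (507 CPM). *Bhmt* was the lowest of its group in the THRB WT mouse b at ZT6 (1098 CPM) and in the THRB KO mouse b at ZT22 (2301 CPM). The latter mouse was also the lowest for *Bhmt2* (228 CPM) and *Pemt* (327 CPM). In each group of 3 some mouse is the lowest for a gene, so this alone makes no level unusual. These mice were picked after their values were seen, and no test was run on them.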
